A study of Mus musculus with 24 samples.

Results

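The genes described here are Nfe2l2, which encodes the transcription factor NRF2, its targets Nqo1, Hmox1, Gclc, Gclm, Txnrd1, Srxn1 and Osgin1, and the metallothionein genes Mt1 and Mt2. They were chosen by name: a probe belonged to a gene where the transcript identifier it was designed on, without its version, matched that gene in the mouse RefSeq table. The table named 22911 genes on the array, and all 10 members had a probe. Every member was well above background on all 24 arrays, so none was lost to the filter on dim probes. Txnrd1 and Mt1 had 2 probes each, of which the brighter was read.

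The arrays measured total RNA of 4 tissues, namely kidney, liver, lung and white adipose tissue (WAT), from untreated male C57BL/6J mice, 3 young mice of 10 weeks and 3 aged mice of 90 weeks for each tissue. The question was how expression in each organ differed between the ages. Aged livers carry the numbers 1, 2 and 4 in the labels, and the labels do not say whether a mouse gave more than 1 tissue. Each tissue was hybridised on a slide of its own that held both ages, so tissue and slide cannot be told apart, whereas age was compared within a slide.

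Under basal conditions KEAP1 hands NRF2 to the proteasome. Oxidants and electrophiles disable KEAP1, after which NRF2 pairs with small MAF proteins on antioxidant response elements (ARE) and switches on genes of quinone reduction, glutathione synthesis and thioredoxin recycling. Several of these genes also answer to other factors: Hmox1, the inducible heme oxygenase, is held down by BACH1 until heme is abundant and is strongly expressed by macrophages that take up red cells. Metallothioneins are small cysteine-rich proteins that bind zinc and copper, and their genes are induced by zinc through MTF1 on metal response elements (MRE), by glucocorticoids and by inflammatory cytokines, above all in liver.

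Promoter sequence is shown for members that are described together below: the adjacent metallothionein pair, and Gclm, Txnrd1 and Srxn1, which were among the members lower in aged kidney. Each line is 300 bases of RefSeq sequence on GRCm38.p6, 250 before the annotated start and 50 after, read 5′ to 3′ on the strand of the gene. Capitals mark the ARE core TGACNNNGC and the MRE core TGCACNC or TGCGCNC on either strand, and for Txnrd1 the window shown is that of the 3 that holds a match. The kidney genes shown are those with an ARE core. Nqo1 and Osgin1 were also lower in aged kidney, but their windows hold neither core, and Gclc, lower as well, has no window.
Mt2, chr8:94172368-94172667, plus strand: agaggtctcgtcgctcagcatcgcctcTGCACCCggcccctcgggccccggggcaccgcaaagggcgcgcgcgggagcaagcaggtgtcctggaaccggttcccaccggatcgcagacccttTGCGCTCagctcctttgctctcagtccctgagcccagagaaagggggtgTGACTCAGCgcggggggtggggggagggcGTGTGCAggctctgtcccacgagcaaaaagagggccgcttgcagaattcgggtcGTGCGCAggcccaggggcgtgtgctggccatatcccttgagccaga
Mt1, chr8:94178839-94179138, plus strand: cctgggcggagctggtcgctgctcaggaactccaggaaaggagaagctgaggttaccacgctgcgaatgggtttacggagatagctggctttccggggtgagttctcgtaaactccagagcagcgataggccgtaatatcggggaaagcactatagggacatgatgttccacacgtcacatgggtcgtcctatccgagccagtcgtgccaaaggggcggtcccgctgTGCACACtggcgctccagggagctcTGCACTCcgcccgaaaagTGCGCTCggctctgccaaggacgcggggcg
Gclm, chr3:122245307-122245606, plus strand: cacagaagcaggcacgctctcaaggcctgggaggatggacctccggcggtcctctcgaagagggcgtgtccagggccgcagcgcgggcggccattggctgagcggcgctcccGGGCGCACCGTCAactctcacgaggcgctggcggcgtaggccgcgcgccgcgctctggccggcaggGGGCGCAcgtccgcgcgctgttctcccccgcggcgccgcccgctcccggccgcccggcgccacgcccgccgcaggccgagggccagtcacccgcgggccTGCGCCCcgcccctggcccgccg
Txnrd1, chr10:82858956-82859255, plus strand: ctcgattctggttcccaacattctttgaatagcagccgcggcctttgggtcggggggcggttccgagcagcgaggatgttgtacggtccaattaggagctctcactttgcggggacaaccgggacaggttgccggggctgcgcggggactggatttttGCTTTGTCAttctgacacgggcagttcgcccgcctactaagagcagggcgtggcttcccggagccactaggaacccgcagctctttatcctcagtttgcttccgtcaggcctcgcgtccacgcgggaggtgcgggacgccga
Srxn1, chr2:152105274-152105573, plus strand: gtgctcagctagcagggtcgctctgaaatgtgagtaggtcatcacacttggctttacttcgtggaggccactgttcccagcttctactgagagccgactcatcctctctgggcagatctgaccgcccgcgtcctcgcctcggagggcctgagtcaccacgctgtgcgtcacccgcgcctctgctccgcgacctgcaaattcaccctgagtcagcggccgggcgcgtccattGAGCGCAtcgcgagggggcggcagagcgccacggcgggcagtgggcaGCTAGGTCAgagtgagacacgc

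The RefSeq table held windows for 8 of the 10 members, all but Hmox1 and Gclc. An ARE core was found in windows of 5 members (Nfe2l2, Gclm, Txnrd1, Srxn1 and Mt2) and an MRE core in windows of 4 (Gclm, Srxn1, Mt1 and Mt2), with 10 windows in all since Txnrd1 had 3. Of all 32851 windows of this length, 12.4% hold an ARE core and 25.7% an MRE core. Mt2 held 4 MRE cores, a number that 0.517% of windows reach, with an ARE core that begins 79 bases upstream of its start. Mt1 held 3 MRE cores and no ARE core, and its only upstream match begins 23 bases before the start. In Gclm the ARE core, whose first base lies 134 bases upstream, overlaps an MRE core on the same strand, so that 1 run of capitals covers both. These matches are letters in a window, and the arrays carry no measurement of factor binding.

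Values below are log2 signals relative to the 75th percentile of the same array, so 0 means as bright as that percentile, and a difference of 1 is a 2-fold change. In every tissue the marker genes of its own main cell type were brighter than on all arrays of the other tissues, for 6 of 6 genes in liver, 6 of 6 in lung, 7 of 7 in kidney and 5 of 6 in WAT. The share of probes that rose well above background ran from 58.6% to 71.1% by array, and arrays of a group correlated at r = 0.942 to 0.995 over probes. The lowest values belonged to young WAT replicate 1, which correlated at 0.942 and 0.951 with the other young WAT arrays while those correlated at 0.989 with each other. Its summed signal of kidney epithelial markers was 4.54, compared with 0.609 to 1.05 on the other 5 WAT arrays. Aged lung replicate 1 had a summed signal of hepatocyte markers of 222, compared with 3.25 to 19.8 on the other 5 lung arrays. The part of such signal in the members' values was not tested.

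In young mice the members differed in where they were bright. Differences between young tissues were called with limma at an adjusted p under 0.05 over 25773 genes and unnamed targets read from 1 probe on all arrays. The share of all entries that differed was 75.7% for liver against lung, 58.5% for liver against kidney, 69.5% for liver against WAT, 65.2% for lung against kidney, 55.2% for lung against WAT and 57.6% for kidney against WAT. Of the 10 members, 6, 3, 4, 6, 6 and 6 differed in the same order of pairs. That was below these shares for every pair with liver and for lung against kidney. It was slightly above them for lung against WAT and kidney against WAT.

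Nfe2l2 was highest in lung at 3.50 ± 0.10 (SD, n = 3), above kidney (2.91 ± 0.08), liver (2.79 ± 0.24) and WAT (2.65 ± 0.49), and the latter 3 did not differ beyond their spread. Nqo1, a quinone reductase, was highest in kidney at 2.68 ± 0.27, above WAT (0.14 ± 0.89), lung (−0.37 ± 0.77) and liver (−0.68 ± 0.34), with no called difference among those 3. For Hmox1 none of the 6 pairs of young tissues differed, its means lying between 2.40 in lung and 2.91 in kidney.

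Gclc and Gclm encode the catalytic and modifier subunits of glutamate-cysteine ligase, the rate-limiting step of glutathione synthesis. Gclc ran from liver (5.63 ± 0.06) through kidney (4.86 ± 0.07) and lung (4.54 ± 0.20) to WAT (1.91 ± 0.15), and only kidney and lung did not differ. Gclm fell into a bright pair, liver (5.33 ± 0.03) and kidney (5.20 ± 0.03), and a dim pair, lung (2.69 ± 0.13) and WAT (2.49 ± 0.43), with no called difference inside either pair. Lung was thus close to kidney for Gclc and close to WAT for Gclm.

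Txnrd1, cytosolic thioredoxin reductase, was brightest in kidney (4.28 ± 0.10) and liver (4.23 ± 0.22), which did not differ, followed by lung (3.40 ± 0.17) and WAT (2.74 ± 0.27). Srxn1, sulfiredoxin, which restores overoxidised peroxiredoxins, was dimmest in lung (2.81 ± 0.22), and it was lung against liver and lung against kidney that were called. Osgin1, an oxidative stress-induced growth inhibitor, differed in all 6 pairs, in the order liver (5.13 ± 0.65), kidney (3.57 ± 0.39), lung (2.52 ± 0.23) and WAT (0.71 ± 0.56).

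Young WAT carried the highest metallothionein means, 7.74 ± 0.41 for Mt1 and 7.23 ± 0.73 for Mt2. Only lung against WAT was called for Mt1, and lung against WAT and kidney against WAT for Mt2. Young liver had intermediate means of 7.23 and 6.42, but with an SD of 1.65 for Mt1 and 2.13 for Mt2, the widest of any member in any group.

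**Figure D1:**
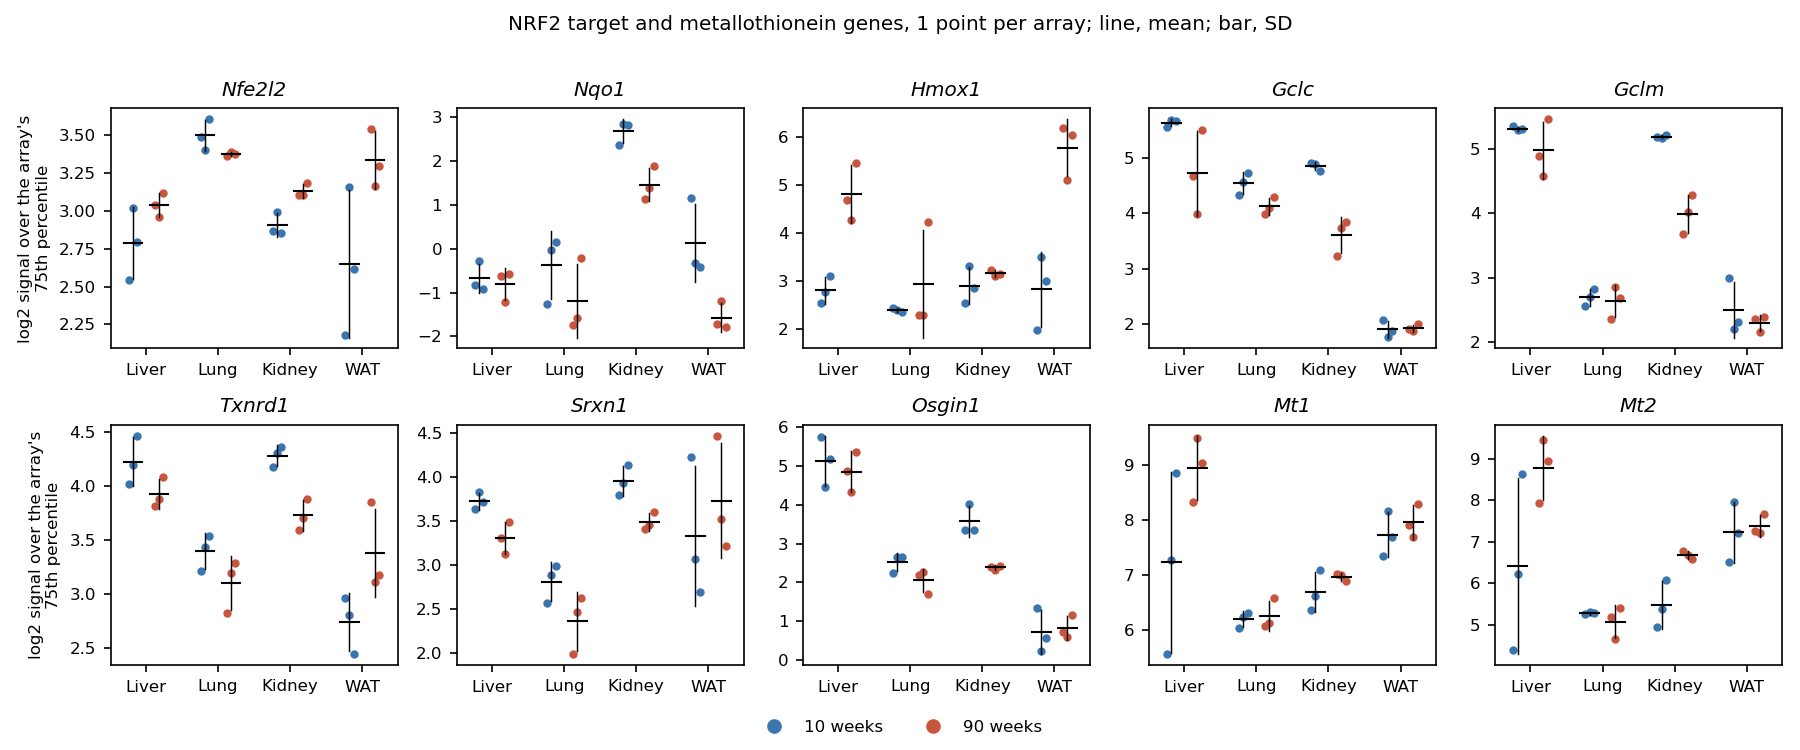
Log2 signal over the array's 75th percentile of each member in 4 tissues, with its own vertical scale for each gene; blue points are young arrays, red points aged arrays, the horizontal line is the mean of 3 and the vertical bar its SD. Hmox1 is higher in aged liver and WAT, the young liver values of Mt1 and Mt2 are spread over more than 3 log2 units, and 6 of the genes are lower in aged kidney.

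With age the members did not move as a group. In liver Hmox1 rose and no other member passed the test, in lung none did, in kidney 6 fell and 2 rose, and in WAT Hmox1 rose. The calls have to be read against very different backgrounds: in liver 10.5% of all 27903 entries tested were called higher and 17% lower, in lung 2.72% and 2.89% of 30321, in kidney 20.6% and 42.6% of 31503, and in WAT 2.01% and 0.579% of 30061. The median change of the 10 members was −0.20 in liver, −0.25 in lung, −0.51 in kidney and 0.19 in WAT, beside −0.20, −0.08, −0.23 and −0.05 over all entries. Young and aged groups did not overlap for 3 of 10 members in liver, 2 in lung, 8 in kidney and 4 in WAT. Of all entries tested, 49.9%, 35.8%, 70.7% and 28.8% had no overlap in that order of tissues, so groups that lie apart were common. In bulk tissue a loss of a cell type and a loss of RNA per cell cannot be told apart.

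**Figure D2:**
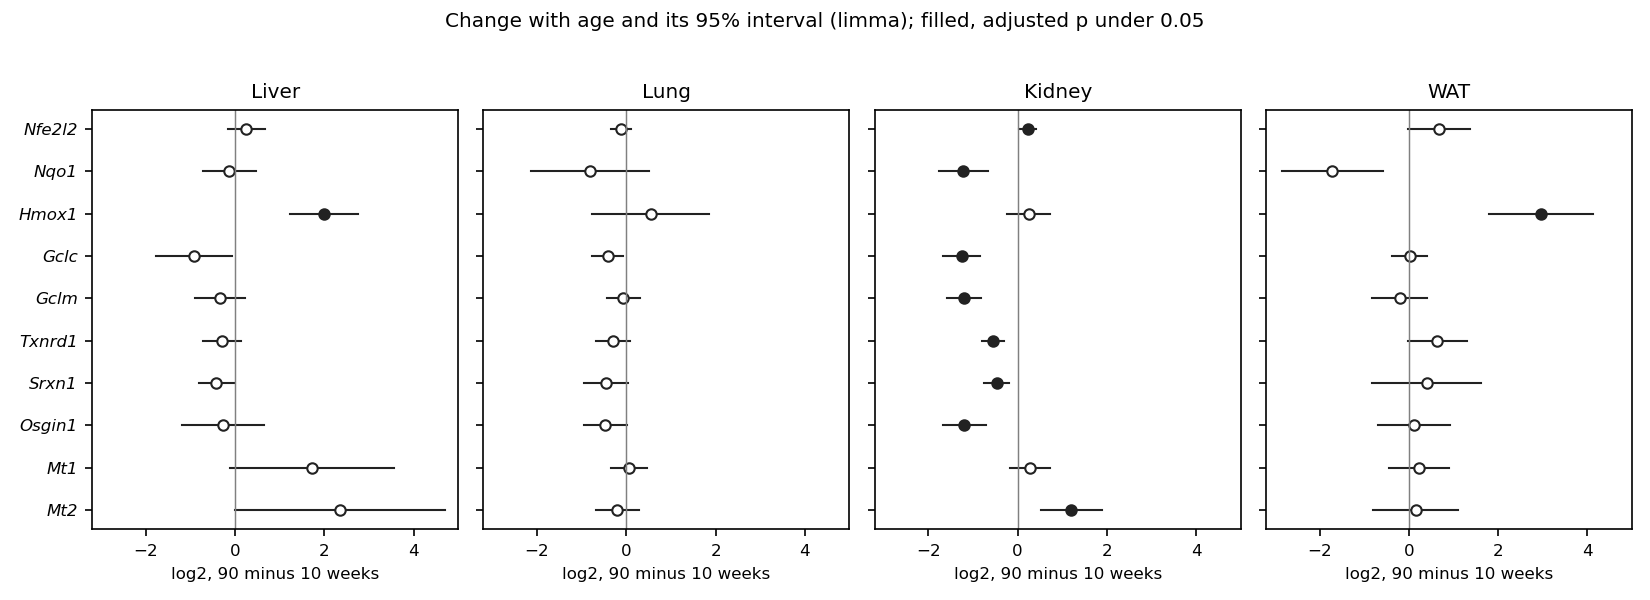
Log2 difference of aged minus young mice for each member in 4 tissues, with the 95% interval of the limma fit on 3 against 3 arrays; filled points have an adjusted p under 0.05 over all entries of that tissue. Filled points are Hmox1 in liver and WAT and 8 of the 10 members in kidney, where 6 lie below 0 and 2 above.

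Nfe2l2 itself was called in kidney alone. There it was 2.87, 3.0 and 2.86 in young mice and 3.11, 3.11 and 3.18 in aged mice. The groups did not overlap, and the difference of 0.23 (SE 0.08) was called higher with a limma adjusted p of 0.0456. That call was lost under 10 of 16 alternatives, among them leaving out any array but young replicate 2 (adjusted p up to 0.648 over all alternatives), and the difference ran from 0.12 with arrays centred on the median of tested entries to 0.49 under quantile normalization (adjusted p = 0.256 and 0.00244). In WAT the young values were 2.18, 3.16 and 2.62 and the aged values 3.54, 3.16 and 3.30, which did not overlap, and the difference of 0.68 (SE 0.28) had an adjusted p of 0.265, or 0.00984 with the spread of all 24 arrays. Liver (0.25, adjusted p = 0.30) and lung (−0.12, adjusted p = 0.424) were not called either.

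Nqo1 reduces quinones to hydroquinones without a radical intermediate. In kidney, the tissue where it was brightest, its values were 2.37, 2.86 and 2.82 in young mice and 1.13, 1.38 and 1.88 in aged mice. All aged values lay below all young values, a difference of −1.22 (SE 0.23, adjusted p = 0.00449), or 2.32-fold lower. In WAT the young values were 1.17, −0.32 and −0.42 and the aged values −1.73, −1.20 and −1.79. These groups did not overlap either, but the difference of −1.71 (SE 0.46) was not called (adjusted p = 0.124), and it was −1.20 (adjusted p = 0.0840) without young WAT replicate 1, the array that stands apart. With the spread estimated from all 24 arrays its adjusted p was 0.0103. Lung (−0.81, adjusted p = 0.374) and liver (−0.13, adjusted p = 0.722) had overlapping groups.

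Hmox1 showed the widest age differences of the NRF2 targets. In liver its values were 2.55, 2.76 and 3.11 in young mice and 4.69, 4.27 and 5.46 in aged mice. The groups were well apart, and the difference of 2.0 (SE 0.32), 4.0-fold, had an adjusted p of 0.00840. The call held under 15 of 16 alternatives and was missed by the methods' t-test (adjusted p = 0.0526). In WAT the young values were 1.97, 3.51 and 2.99 and the aged values 6.19, 5.10 and 6.04, again without overlap. The WAT difference of 2.96 (SE 0.48), 7.76-fold, was called with an adjusted p of 0.0399 but lost the call whenever any of the 6 arrays was left out, with adjusted p between 0.0514 and 0.176 and differences between 2.53 and 3.30. It was also lost without the filter on dim probes (adjusted p = 0.0639), with samples blocked by replicate number (0.123) and by the methods' t-test (0.167).

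In kidney Hmox1 was 2.54, 3.32 and 2.86 in young mice and 3.23, 3.10 and 3.14 in aged mice, with overlap and a difference of 0.25 (adjusted p = 0.299). Without young replicate 2, the highest of the 6, it was called (0.46, adjusted p = 0.0295). In lung the young values were 2.44, 2.39 and 2.36, and the aged values 2.29, 2.30 and 4.23. Only aged lung replicate 3 was high, so that the difference of 0.54 (adjusted p = 0.540) became −0.10 without it. The aged rise in WAT exceeded that in kidney by 2.70 and that in lung by 2.41 in the test of the difference itself (adjusted p = 0.00601 and 0.0452), while liver against kidney, 1.74, was not called (adjusted p = 0.10).

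Macrophage markers (among them Adgre1, Cd68 and C1qa) moved in the same arrays. In liver 8 of 10 tested markers were called higher in aged mice, and their summed signal relative to the 75th percentile went from 119 to 164 in young mice to 472 to 542 in aged mice. In WAT 3 of 9 were called higher, with sums of 40.1 to 124 in young and 247 to 545 in aged mice. The same WAT arrays had B and plasma cell markers called higher for 6 of 6, with sums of 0.759 to 3.24 in young and 42.5 to 63.4 in aged mice, and T cell markers for 3 of 5, with sums of 4.91 to 5.24 and 10.1 to 13.6. In lung none of 10 macrophage markers was called, and aged replicate 3 alone reached 225 against 43.7 to 73.9 on the other 5 arrays. Kidney was the exception: 6 of 7 macrophage markers were called higher and the sum went from 21.7 to 24.8 up to 77.4 to 113, while the Hmox1 groups overlapped. Of the 5 red blood cell markers tested, Alas2 was called higher in lung (3.68), where the sum went from 83.4 to 448 in young mice up to 1000 to 1637 in aged mice, Slc4a1 was called lower in kidney (−1.58), and none was called in liver or WAT. The part of macrophages, lymphocytes or red cells in the Hmox1 values was not tested.

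**Figure D3:**
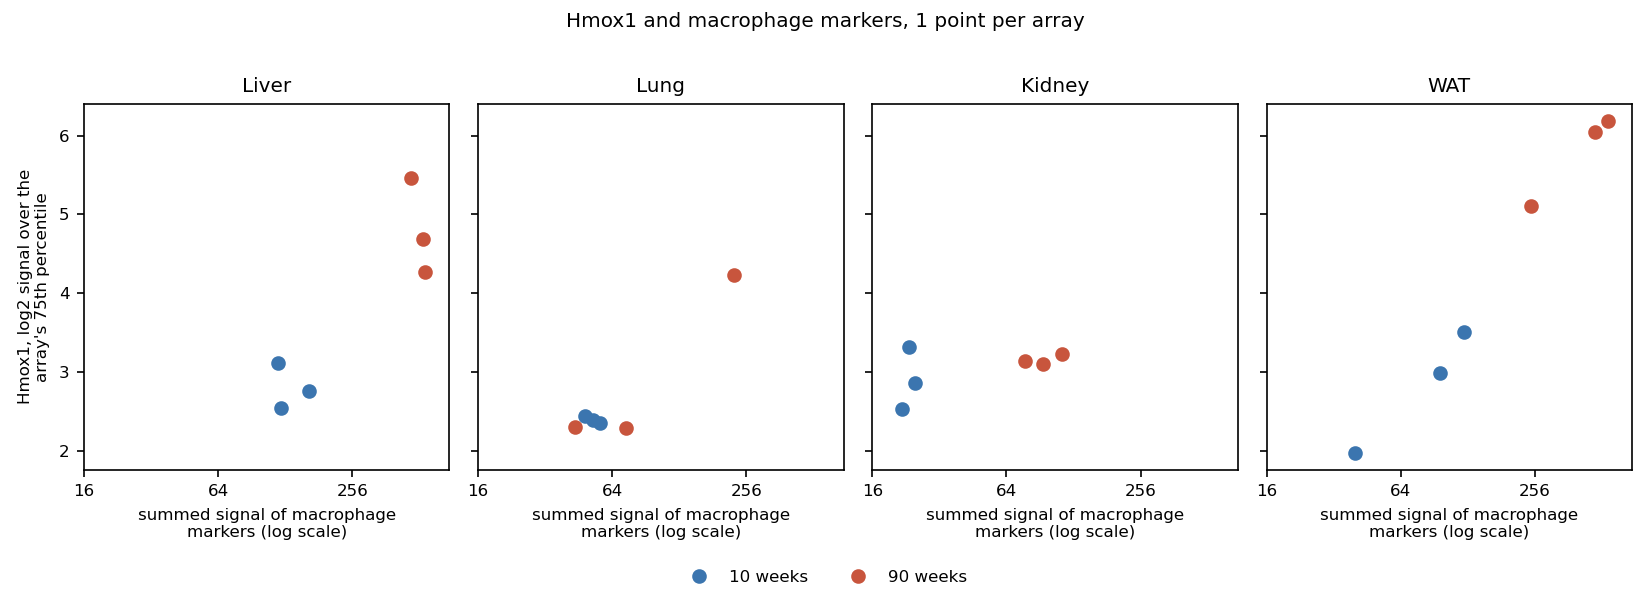
Hmox1 (log2 signal over the array's 75th percentile) against the summed signal of the macrophage markers tested in that tissue, on a log2 axis in units of the array's 75th percentile, 1 point per array; blue points are young and red points aged. The 3 aged livers, the 3 aged WAT arrays and aged lung replicate 3 are highest for both measures in their tissue, although among the aged livers the highest sum goes with the lowest Hmox1, whereas in kidney the sum is higher in all aged mice and the Hmox1 groups overlap.

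The glutathione synthesis genes fell in aged kidney. Gclc was 4.91, 4.89 and 4.77 in young and 3.24, 3.74 and 3.84 in aged kidneys. Gclm was 5.19, 5.18 and 5.23 in young and 3.68, 4.02 and 4.28 in aged kidneys. Neither gene's groups overlapped, and the young kidneys lay closer together than the aged ones for both. The difference was −1.25 (SE 0.17, adjusted p = 0.00125) for Gclc and −1.21 (SE 0.16, adjusted p = 0.00110) for Gclm, or 2.38-fold and 2.31-fold lower.

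In liver Gclc was 5.56, 5.68 and 5.66 in young mice and 4.67, 3.98 and 5.51 in aged mice. The aged values were all lower but spread widely, and the difference of −0.91 (SE 0.36) was not called (adjusted p = 0.0963). Gclm had the same order of aged livers, 4.90, 4.59 and 5.47 against 5.36, 5.30 and 5.31 in young livers, and a difference of −0.34 (adjusted p = 0.306). Aged liver replicate 2, lowest for both subunits, also had a neutrophil marker sum of 1583, compared with 4.36 to 28.5 on the other 5 liver arrays, and without it the Gclc difference was −0.54. Leaving out aged replicate 4 gave −1.31 with a call (adjusted p = 0.0172). The summed signal of hepatocyte markers went from 4876 to 5578 in young livers down to 3265 to 3881 in aged livers. Of these markers 1 of 6 was called lower, 16.7% beside 17% of all liver entries. The part of tissue composition in the liver values was not tested. Lung Gclc had groups that did not overlap (4.33, 4.56 and 4.73 against 3.98, 4.10 and 4.29) and a difference of −0.42 (adjusted p = 0.135). Gclm in lung (−0.06) and both subunits in WAT (0.02 and −0.20) differed by less than the spread between arrays.

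The change of Gclm in kidney was larger than in lung by 1.14 (adjusted p = 0.0114) and than in WAT by 1.01 (adjusted p = 0.0217), and that of Gclc was larger than in WAT by 1.27 (adjusted p = 0.0137). Over the 24 arrays, after each tissue's mean was taken off, the 2 subunits correlated at r = 0.874, which describes arrays that share age groups and slides.

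Txnrd1 and Srxn1 fell less. In kidney Txnrd1 was 4.18, 4.31 and 4.36 in young and 3.60, 3.71 and 3.89 in aged mice, a difference of −0.55 (SE 0.11, adjusted p = 0.00480). Its dimmer probe gave −0.43 (adjusted p = 0.0167). Srxn1 was 3.79, 3.93 and 4.13 in young and 3.40, 3.45 and 3.60 in aged kidneys, a difference of −0.47 (SE 0.11, adjusted p = 0.0123). Groups were apart for both genes, but under quantile normalization neither was called, at −0.18 and −0.12 where the median of all entries was −0.19. Srxn1 was not called with the spread of all 24 arrays either (adjusted p = 0.247).

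In WAT Txnrd1 pointed the other way, at 2.97, 2.81 and 2.45 in young and 3.85, 3.11 and 3.18 in aged mice, without overlap. That difference of 0.64 (SE 0.27) was not called (adjusted p = 0.268), and it was called with the spread estimated from all 24 arrays (adjusted p = 0.0218). The test of the difference between tissues was passed for kidney against WAT (−1.19, adjusted p = 0.00404) and liver against WAT (−0.94, adjusted p = 0.0199). Both settings use a single spread for all tissues, while the SD of Txnrd1 was 0.27 and 0.41 in young and aged WAT. In kidney it was 0.10 and 0.14, so WAT was judged by too narrow a spread. Srxn1 in liver had groups apart (3.63, 3.82 and 3.71 against 3.30, 3.13 and 3.49) and a difference of −0.42 that was not called (adjusted p = 0.0952). Srxn1 in WAT ranged from 2.69 to 4.22 in young and from 3.21 to 4.46 in aged mice, the highest value of each age being that of replicate 1. Txnrd1 and Srxn1 in lung differed by −0.30 and −0.45, with overlapping groups.

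Osgin1 was 3.35, 4.03 and 3.34 in young and 2.40, 2.31 and 2.43 in aged kidneys. All aged values were lower, and the difference of −1.19 (SE 0.20) was called (adjusted p = 0.00276). In lung the difference was −0.47 (adjusted p = 0.189), in liver −0.27 (adjusted p = 0.619) and in WAT 0.11 (adjusted p = 0.889), with overlap in each. Kidney differed from WAT by −1.30 (adjusted p = 0.0460).

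The size of the kidney differences, and whether they were called, depended on how arrays are put on a common scale. Scaling to the spike-in spots moved the median change of all entries by 0.20 in kidney, −0.54 in liver, −0.30 in lung and 0.24 in WAT, and centring on the median of tested entries moved it by −0.11 in kidney. On the spike-in scale none of the 6 lower members was called in kidney, although Gclc (−1.05), Gclm (−1.01), Nqo1 (−1.02), Osgin1 (−0.99), Txnrd1 (−0.35) and Srxn1 (−0.27) all kept their sign, and 3853 entries were called higher and 1181 lower in place of 6483 and 13409. In kidney and liver the adjusted p on that scale ranked the members by the size of the difference, whatever their spread. The log2 spike-in signal was 9.80, 10.50 and 9.10 in young kidneys, whose log2 75th percentiles were 9.27, 9.19 and 8.85. Relative to the median of all entries, a quantity that is the same under these 3 scalings, the kidney differences were −1.02 for Gclc, −0.97 for Gclm, −0.98 for Nqo1, −0.96 for Osgin1, −0.32 for Txnrd1 and −0.23 for Srxn1, and 1.44 for Mt2 and 0.46 for Nfe2l2. On the spike-in scale the split of higher and lower calls was 1063 and 3637 in liver in place of 2928 and 4749, 702 and 3585 in lung in place of 825 and 875, and 1133 and 76 in WAT in place of 605 and 174. With normexp background correction it was 2541 and 6518 in liver.

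**Figure D4:**
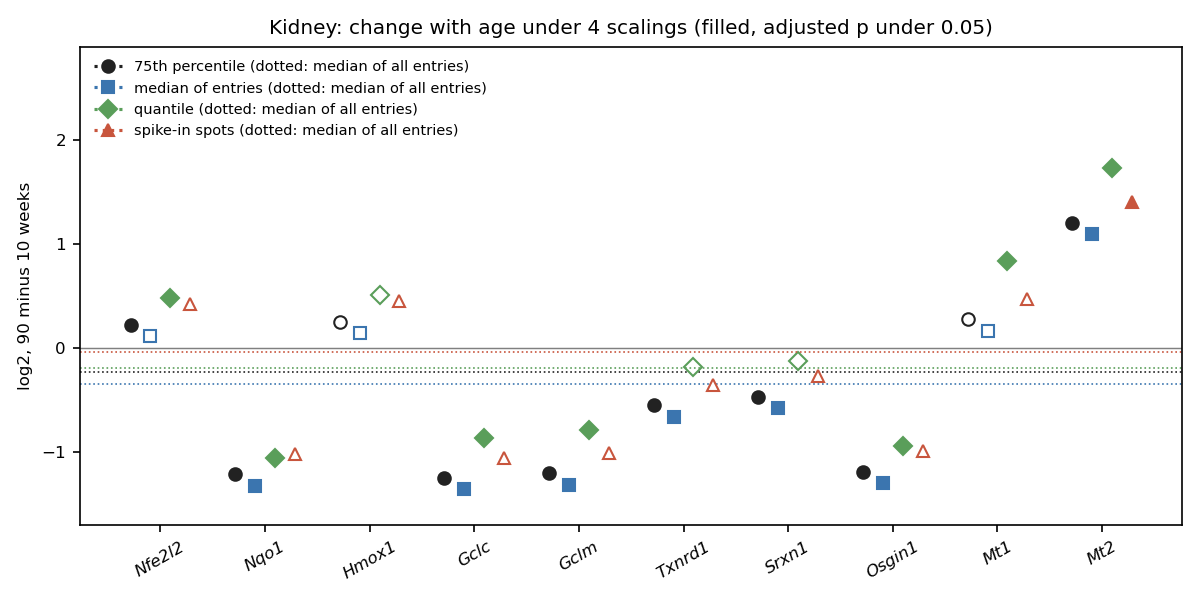
Log2 difference of aged minus young kidneys for each member under 4 ways of scaling the arrays; filled symbols have an adjusted p under 0.05, and each dotted line is the median of all entries under the scaling of that colour. Nqo1, Gclc, Gclm and Osgin1 lie between −1.36 and −0.79 throughout, Txnrd1 and Srxn1 lie at or near the median under quantile normalization, and Mt2 is above 1 in each.

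Cell type markers moved in the same kidneys. Of 7 kidney epithelial markers 5 were called lower, led by Slc12a3 (−1.63), Slc34a1 (−1.24) and Slc12a1 (−1.21), the transporters of distal tubule, proximal tubule and thick ascending limb, and 1 was called higher, the podocyte gene Nphs1 (0.32). These are 71.4% and 14.3% of the list, beside 42.6% and 20.6% of all kidney entries. The summed signal of the list went from 801 to 940 in young mice down to 286 to 522 in aged mice. Markers of other tissues were called in these kidneys too. Hepatocyte markers were lower for 5 of 5, and alveolar and airway epithelial markers for 2 of 3. Adipocyte markers were lower for 2 and higher for 4 of 6, and muscle markers lower for 1 and higher for 3 of 5. B and plasma cell markers were called higher for 6 of 6, with sums of 0.800 to 1.07 in young and 49.0 to 82.6 in aged kidneys, and acute phase genes for 8 of 9, with sums of 4.48 to 5.44 and 63.1 to 65.6. The part of tissue composition in the fall of the NRF2 targets was not tested.

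Metallothioneins were not among the members that fell in kidney. There Mt2 was 4.95, 5.38 and 6.09 in young and 6.77, 6.68 and 6.58 in aged mice. Every aged value was higher, and the difference of 1.21 (SE 0.28), 2.31-fold, was called (adjusted p = 0.0101). With the spread of all 24 arrays it was not (adjusted p = 0.161). Mt1 was 6.37, 6.62 and 7.08 in young and 7.02, 7.0 and 6.88 in aged kidneys, which overlapped, and its difference of 0.28 had an adjusted p of 0.233. Without young kidney replicate 3, the highest of the young values for both genes, Mt1 was also called (0.47, adjusted p = 0.0199), and under quantile normalization it was 0.84 (adjusted p = 0.00685).

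In liver the young mice spanned a wider range than the difference between the ages. Mt1 was 5.56, 7.28 and 8.86 in young livers and 8.33, 9.49 and 9.03 in aged livers. Mt2 was 4.40, 6.22 and 8.64 in young livers and 7.93, 9.45 and 8.96 in aged livers. Young replicate 3 lay inside the aged range for both genes while the other young livers lay below it. The differences of 1.72 (SE 0.78) for Mt1 and 2.36 (SE 0.99) for Mt2 were not called (adjusted p = 0.133 and 0.113). Without young replicate 3 they were 2.53 and 3.47 and both were called (adjusted p = 0.0367 and 0.0272), whereas without young replicate 1, the lowest, they were 0.88 and 1.35 and neither was (adjusted p = 0.284 and 0.253). With the spread of all 24 arrays they were called as well (adjusted p = 0.0124 and 0.00948). That spread is pooled with tissues that varied less, such as young lung with an SD of 0.14 for Mt1 and 0.036 for Mt2. On the spike-in scale Mt2 was called (1.82, adjusted p = 0.00673). In liver the adjusted p on that scale ranked the members by the size of the difference, whatever their spread. Neither setting therefore judged the 2 genes by the spread of the livers alone.

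Glucocorticoid-induced genes were measured beside them. In liver 2 of 7 were called higher in aged mice, Zbtb16 (1.29) and Sgk1 (1.11), and the summed signal was 71.4, 96.4 and 92.8 in young livers and 108, 164 and 153 in aged livers, without overlap. Young replicate 3, with the highest young metallothionein values, had the middle sum. Acute phase genes were called higher for 3 of 10, but their sums overlapped, at 1964, 1855 and 2613 in young livers and 2183, 6516 and 1999 in aged livers. Only aged replicate 2, the highest for Mt1 and Mt2 as well, lay above young replicate 3. The part of either list in the metallothionein values was not tested.

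In lung Mt1 (0.06) and Mt2 (−0.20) and in WAT Mt1 (0.23) and Mt2 (0.15) differed by less than the spread between arrays. The smaller of these signs depended on the setting: Mt1 in lung was −0.24 on the spike-in scale and Mt2 in WAT −0.21 without young WAT replicate 1. No pair of tissues differed in the change of Mt1 or Mt2, the closest being Mt2 in liver against lung (2.56, SE 0.95, adjusted p = 0.0707). Over the 24 arrays, centred by tissue, Mt1 and Mt2 correlated at r = 0.961, with 0.997 within liver and 0.468 within lung, each of these over 6 arrays. The 2 genes are close relatives in sequence, so part of the signal at a probe may come from the other transcript.

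The 2 probes of Mt1 disagreed. The dimmer probe, A_52_P423810, was designed on a predicted Mt1 transcript, and all 24 arrays read it well above background. In lung it was −2.47, −3.04 and −3.30 in young and −0.78, −1.0 and −1.30 in aged mice. That is a difference of 1.91 (SE 0.25) with a limma adjusted p of 0.0176 when every probe was an entry of its own, where the brighter probe gave 0.06. In liver it was −0.83, 0.31 and −0.42 in young and 1.94, 4.73 and 3.89 in aged mice, with no overlap and a difference of 3.83 (SE 0.68, adjusted p = 0.0115). Young liver replicate 3, highest of its group at the brighter probe, was not high at this one.

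In kidney the dimmer probe gave 1.20 (SE 0.27, adjusted p = 0.00839), with no overlap, and in WAT 1.27 (SE 0.94, adjusted p = 0.491), with overlap. This comparison was added after the values had been seen, and which transcript the dimmer probe measures was not tested.

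**Figure D5:**
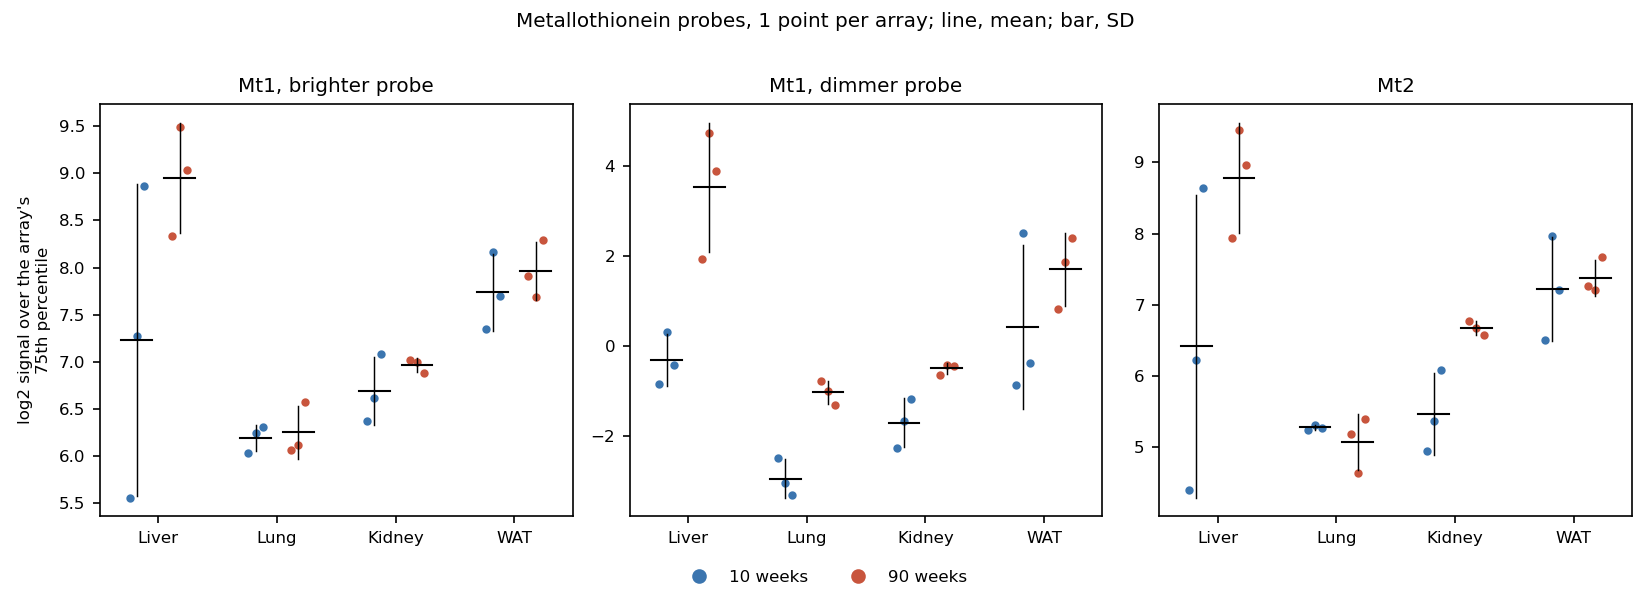
Log2 signal over the array's 75th percentile for the brighter Mt1 probe, the dimmer Mt1 probe and Mt2, each with its own vertical scale; blue points are young arrays, red points aged arrays, the line is the mean of 3 and the bar its SD. The dimmer Mt1 probe is higher on every aged lung, liver and kidney array than on any young array of that tissue, which the brighter probe is not.

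Across the 60 comparisons of a member's age change between 2 tissues, 8 were called. The share of all entries called was 16.8% for liver against lung, 9.4% for liver against kidney, 18.9% for liver against WAT, 23.3% for lung against kidney, 3.24% for lung against WAT and 25.1% for kidney against WAT. The members gave 0, 0, 1, 1, 1 and 5 calls of 10 in that order, so kidney against WAT held most of them: Hmox1, Gclc, Gclm, Txnrd1 and Osgin1. The members lay above the share of all entries for kidney against WAT and, with 1 call, for lung against WAT. They lay below it for every other pair.

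Other genes of the pathway were counted list by list. Of 26 further NRF2 targets tested in kidney, 17 were called lower and 6 higher, with a median of −0.70 beside −0.23 over all entries. These are 65.4% and 23.1% of the list, beside 42.6% and 20.6% of all kidney entries. Lower were Ces1g (−1.95), the malic enzyme gene Me1 (−1.60) and catalase, Cat (−1.40). Higher were the conjugate exporter gene Abcc3 (3.20), the carbonyl reductase gene Cbr3 (2.10) and aldehyde oxidase, Aox1 (1.79). The same list gave 3 lower and 3 higher of 26 in liver, led by Gstp1 (−2.27) and by G6pdx (1.89), or 11.5% each way beside 17% and 10.5% of all liver entries. Its liver median was nevertheless −0.56, beside −0.20 over all entries. The summed signal of the list fell without overlap in both organs. It went from 2739 to 3322 down to 1172 to 2370 in liver, and from 995 to 1129 down to 557 to 683 in kidney. The list gave 1 lower (Cat, −0.73) of 26 in lung and no call of 25 in WAT.

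Of 13 genes that control NRF2 or share its binding partners, 5 were called lower and 1 higher in kidney, 38.5% and 7.69% of the list, neither above the 42.6% and 20.6% of all kidney entries. Lower were Cul3 (−0.81), which with KEAP1 forms the ligase for NRF2, Nfe2l3 (−0.65) and the autophagy receptor gene Sqstm1 (−0.55). The small MAF gene Maff was called higher in kidney (1.95) and in liver (1.48), and Nfe2l3 lower in liver (−0.64). None was called in lung or WAT.

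Of 10 genes of heme and iron handling, 6 were called lower and 2 higher in kidney, 60% and 20% of the list beside 42.6% and 20.6% of all entries. Lower were the transferrin receptor gene Tfrc (−1.77), ferrochelatase, Fech (−1.05), and biliverdin reductase, Blvra (−0.71). Higher were ceruloplasmin, Cp (3.49), and the iron exporter gene Slc40a1 (0.51). Slc40a1 was also the single call of this list in WAT (2.05) and in lung (1.40), and none of the 10 was called in liver, where Hmox1 rose.

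Of 8 zinc and metal handling genes tested, 3 were called lower in liver, Slc30a10 (−1.69), Slc39a8 (−0.71) and Slc39a4 (−0.62), which is 37.5% beside 17% of all liver entries. In kidney 5 were called lower, 62.5% beside 42.6%, with Slc39a8 (−2.07), Slc39a5 (−0.82) and the zinc exporter gene Slc30a1 (−0.72) in front, and Slc39a4 was called higher (1.96). Slc39a4 was the single lower call in lung (−0.47), and WAT had none.

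The genes whose values were most like a member's over the 24 arrays, after centring on each tissue's mean, were found among 15512 genes. For Hmox1 they were Lrp12 (r = 0.944), Psap (0.918) and Grn (0.915). Gclc was followed most closely by Rps27l (0.949), Mrpl47 (0.941) and Mtfr1 (0.939), and Gclm by Smim26 (0.933), Ubxn6 (0.927) and Rbm47 (0.925). Nfe2l2 had Foxn2 (0.909), Fam168b (0.899) and Nfya (0.895) nearest.

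For Srxn1 the nearest were Coa4 (0.921), M1ap (0.913) and Prmt7 (0.892), and for Txnrd1 Klc4 (0.883), Rdh13 (0.871) and Azin1 (0.863). Nqo1 and Osgin1 had looser neighbours, at most 0.859 (AA543186) and 0.811 (Atcay). Each metallothionein was the nearest gene of the other, with Foxc1 (0.888) next for Mt1 and B4galt1 (0.870) next for Mt2. Among the members themselves, Txnrd1 and Srxn1 correlated at 0.834 and Nfe2l2 and Hmox1 at 0.769. These correlations describe arrays that share age groups and slides.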

How the data were processed

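RNA of 24 tissue samples was labelled with Cy3 and hybridised to 1-colour Agilent arrays. The authors deposited scanner output of Feature Extraction 11.0.1.1, whose processed signal intensity is background-subtracted per the file headers. The methods name a human array kit, whereas the file headers name a mouse design. An authors' table of the whole series was not used.

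Spots marked as outliers were left out, the log2 of the intensity deposited by the authors was taken relative to each array's 75th percentile, and spots of a probe were averaged. A probe entered a tissue's fit where 3 or more of its 6 arrays read it well above background, with the brightest probe of a gene. Ages were compared within each tissue with limma 3.58.1 (R 4.3.3, lmFit and eBayes, two-sided, Benjamini-Hochberg over all entries, called at an adjusted p under 0.05), and tissues in a fit of all 24 arrays. That fit gives a gene a single spread for all tissues, so a tissue that varies more than the others is judged by too narrow a spread. Of 56605 probes, 58.3% matched a RefSeq gene. The fit was tested on simulated data. An exact permutation test of 3 against 3 cannot go below p = 0.1, and the number of arrays limits the precision. Whether samples are separate mice is read from the labels, so p-values measure the spread between these samples. All 10 members are named, with at most 3 called genes a list, direction and tissue and the 3 genes most like each member. Members and lists were chosen with earlier results of these data known. Alternatives covered background correction, scaling, filters, probes, pairing and left-out arrays. Sequences are RefSeq windows on GRCm38.p6. The young-to-aged numbering gave correlations of deviations between −0.166 and 0.181 and does not pair the mice.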

Additional observations from a re-analysis of the deposited data

Results flagged for a closer look

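The change with age differed between a pair of tissues for 8 of 60 comparisons of members in the limma fit of all 24 arrays. The share of all entries called was 25.1% for kidney against WAT, 23.3% for lung against kidney, 18.9% for liver against WAT and 3.24% for lung against WAT. Liver against lung (16.8%) and liver against kidney (9.4%) gave no call of a member. The fit gives a gene a single spread for all tissues, so a tissue that varies more is judged by too narrow a spread. For Hmox1 the aged-minus-young difference was 2.41 lower in lung than in WAT (−2.41, adjusted p = 0.0452) and −2.70 in kidney relative to WAT (adjusted p = 0.00601). Kidney relative to WAT gave −1.27 for Gclc (adjusted p = 0.0137), −1.01 for Gclm (adjusted p = 0.0217), −1.19 for Txnrd1 (adjusted p = 0.00404) and −1.30 for Osgin1 (adjusted p = 0.0460). For Gclm lung relative to kidney gave 1.14 (adjusted p = 0.0114), and for Txnrd1 liver relative to WAT gave −0.94 (adjusted p = 0.0199). Groups of 3 arrays were not searched for single outlying samples.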

How the results depend on the processing

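Of 648 values of single members under the alternatives, 575 kept their sign and their side of the threshold, 30 lost a call, 22 gained one and 21 changed sign. Members called higher in liver (1) numbered 2 on the spike-in scale, 2 with the mean of a gene's probes, 3 with all 24 arrays in 1 fit and 0 by the methods' t-test, and 1 to 3 when an array was left out. In lung 1 was called higher with the mean of a gene's probes, Mt1 (0.99), and 0 whichever array was left out. In kidney the 2 called higher became 1 on the spike-in scale, 1 with the median as centre, 1 without the filter on dim probes, 0 in the fit of 24 arrays, and 1 to 3 with an array left out. In WAT the 1 called higher became 0 without the filter, 3 in the fit of 24 arrays, 0 by the t-test and 0 with any array left out. Members called lower numbered 1 in liver on the spike-in scale and 1 in the fit of 24 arrays (0 to 1 with an array left out), 0 in kidney on the spike-in scale (6 with any array left out) and 1 in WAT in the fit of 24 arrays. The 8 calls between tissues became 4 on the spike-in scale and 4 to 12 with an array left out, and the 31 calls between young tissues 29 to 36.

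With the replicate block (young and aged samples of the same number, which share only a number) the counts called higher were 3 in liver, from the 4 arrays whose numbers match, 1 in kidney and 0 in WAT, and those called lower did not move by over 1.5 times.

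None of the differences whose sign turned had been called. On the spike-in scale Nfe2l2 in liver was −0.28, Mt1 in lung −0.24 and Gclm in WAT 0.043. Under quantile normalization Mt1 in lung was −0.016, Gclc in WAT −0.028 and Mt2 in WAT −0.035. Leaving out each array in turn gave ranges that cross 0 in liver for Nqo1 (−0.24 to 0.077) and Osgin1 (−0.61 to 0.041), in lung for Gclm (−0.18 to 0.074), Hmox1 (−0.10 to 0.87), Mt1 (−0.099 to 0.16) and Mt2 (−0.36 to 0.012), and in WAT for Gclc (−0.049 to 0.098), Gclm (−0.35 to 0.046), Mt2 (−0.21 to 0.52) and Osgin1 (−0.13 to 0.42). The cause of these differences was not tested.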
